A study of Mus musculus with 12 samples.

Results

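Oas1c, Oas1d, Oas1e and Oas1h are 4 members of the mouse Oas1 gene cluster whose transcripts are known from the ovary. They were taken by name from the 23230 genes measured, and all 4 were among the 11502 genes that reached 1 FPKM in at least 1 library. FPKM is the number of fragments mapped to a gene, relative to transcript length and to all mapped fragments of the library. The study compared oocytes of wild-type (WT) mice with oocytes in which both Zar1 and Zar2, a pair of RNA-binding protein genes, were disrupted (Zar1/2-null). Zar2 is listed in the data as Zar1l. Both alleles are small CRISPR/Cas9 deletions carried in the germ line, so every cell of the null mice carried the disrupted genes. Both genotypes had a C57BL6/ICR hybrid background. Growing oocytes came from females of 13.5 days by the labels, whereas the methods of the study give a slightly younger age for growing oocytes. Germinal vesicle (GV) oocytes came from females of 21 days, 44 h after an injection of PMSG, and MII oocytes were ovulated oocytes collected 16 h after hCG. MII names this time of collection in both genotypes, since the study describes ovulated null oocytes as halted in meiosis I. Genotype and meiotic stage thus cannot be told apart in the MII libraries. The study also held WT oocytes in meiosis I with nocodazole and reported that the decay of selected mRNAs was unaffected. From this it proposes that the delayed decay in null oocytes came from the lack of ZAR1/2. Each of the 6 groups held 2 libraries of 10 pooled oocytes, and no source stated whether the replicates came from separate mice, so the p-values measure the spread between these libraries. The libraries were primed with oligo-dT, so a poly(A) tail was needed for a transcript to be counted, and the authors scaled the FPKM of each library to the ERCC spike-in RNA added to it.

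Oligoadenylate synthetases sense double-stranded RNA. Active family members join ATP into 2′-5′-linked oligoadenylates (2-5A), a second messenger of the antiviral response. Interferon raises the transcription of many family genes through interferon-stimulated response elements in their promoters. The mouse Oas1 family has expanded by duplication, and most of its proteins are thought to lack synthetase activity. Oas1a and Oas1g encode active enzymes. Oas1d encodes an inactive protein of the oocyte that can bind OAS1A and restrain it, and its loss lowers female fertility. Oas1b is the flavivirus resistance gene and is truncated in common laboratory strains. The roles of Oas1c, Oas1e and Oas1h are less well known.

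By the motifs marked below, the stretch just before the start codon separates the 4 genes from the interferon-type members of the cluster. It is shown here for all 8 Oas1 genes. The runs were read from the mm9 mouse genome, the build that the authors used, and lie 5′ to 3′ on the strand of each gene. Each holds the 30 bases from position 70 to position 41 before the first base of the start codon, except that of Oas1b, which holds positions 90 to 61. Capitals mark a TATA-type element with the letters TATAA. They also mark an E-box, the kind of site bound by basic helix-loop-helix factors, with the letters CAGCTG. In the last 3 runs they mark the interferon-stimulated response element, GAAANNGAAA, which occurred there as a pair of overlapping copies.
Oas1c: cagctatggaTATAAggggCAGCTGactca
Oas1d: cagctatggaTATAAggggCAGCTGactcc
Oas1e: cagctatggaTATAAggggCAGCTGactca
Oas1h: cagctatggaTATAAgaggCAGCTGactcc
Oas1f: gctatggaaatgatggacaactggcttcca
Oas1a: gGAAATGGAAACTGAAAatctacttcccat
Oas1b: ggGAAATGGAAACTGAAAgtcccatttctg
Oas1g: gGAAATGGAAACTGAAAatctacttcccat
These runs lie at chr5:121258813-121258842 (Oas1c, minus strand), chr5:121364823-121364852 (Oas1d, plus strand), chr5:121245548-121245577 (Oas1e, minus strand) and chr5:121311393-121311422 (Oas1h, plus strand). Those of the other genes lie at chr5:121297331-121297360 (Oas1f, plus strand), chr5:121357526-121357555 (Oas1a, minus strand), chr5:121262620-121262649 (Oas1b, plus strand) and chr5:121337612-121337641 (Oas1g, minus strand).

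In all 4 ovary-expressed genes the TATA-type element began 60 bases and the E-box 51 bases before the start codon. The letters that these genes shared over both elements, TATAAGNGGCAGCTG, were chosen after the sequences had been read, were searched on both strands and occurred in 4 of 21645 windows, each of which held the 150 bases before the annotated start codon of a coding gene and the codon itself. The 4 were Oas1c, Oas1d, Oas1e and Oas1h, a share of 0.0185% of the windows, and since the letters came from these genes, their presence there is no finding. On their own the parts were common, since the TATA-type letters were in 15.4% and those of the E-box in 9.12% of the same windows. The response element, searched on both strands as well, was in 2.09% of the windows and, within the Oas1 genes, in those of Oas1a, Oas1b and Oas1g. No copy of it was found in the windows of Oas1c, Oas1d, Oas1e, Oas1f and Oas1h. Oas1f lacked all 3 of the marked motifs, but it held E-boxes of the general form CANNTG, which 47.1% of the windows held. In Oas1f these were CAACTG, which began 53 bases before the start codon, and CAGATG, which began 124 bases before it. A further motif searched, the octamer TTTGCAT, was in 2.55% of the windows. Within the Oas1 genes it was in those of Oas1b, Oas1c and Oas1h only, so it did not follow the same division. A match of letters is a description of the sequence, and binding was not measured.

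Longer stretches from position 150 to the base before the annotated transcript start show how far the likeness reaches, with the same capitals. They lie at chr5:121245540-121245657 (Oas1e, minus strand), chr5:121311313-121311429 (Oas1h, plus strand) and, for the interferon-type gene, chr5:121357535-121357635 (Oas1a, minus strand).
Oas1e: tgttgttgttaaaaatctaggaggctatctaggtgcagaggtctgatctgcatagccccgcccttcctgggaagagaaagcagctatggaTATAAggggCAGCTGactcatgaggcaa
Oas1h: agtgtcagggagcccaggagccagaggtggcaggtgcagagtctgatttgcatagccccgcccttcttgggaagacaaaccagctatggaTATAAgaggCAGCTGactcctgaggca
Oas1a: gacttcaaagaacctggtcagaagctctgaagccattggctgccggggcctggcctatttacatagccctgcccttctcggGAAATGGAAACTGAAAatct
Over the whole windows, the 4 genes were 78.5% to 94.8% identical to each other in pairwise alignments. Oas1c and Oas1d were the most alike of the 6 pairs at 94.8%, and Oas1e and Oas1h the least at 78.5%. Against Oas1a the 4 windows were 45.8% to 48.5% identical, and against Oas1f 66.7% to 76.3%. The start that the annotation gives to Oas1e and Oas1h lies 32 and 33 bases before the codon. Oas1c and Oas1d also have annotated transcripts that begin farther upstream, with 362 and 348 bases of 5′ UTR. In that model of Oas1d the stretch lies inside the first exon. For Oas1c the exon bounds were not read, so the stretch may lie in an exon or an intron of its model.

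The coding sequences of the 4 genes were less alike than the windows before them in 4 of the 6 pairs, and more alike in the pairs of Oas1e with Oas1c and with Oas1d. Coding identity was counted over aligned bases without gaps, and that of the windows over all alignment columns. Gaps thus lower the window values only. Oas1d and Oas1e were the closest pair with 90.8% identity over the coding sequence. Oas1c was 85.4% identical to Oas1e and 84.6% to Oas1d. Oas1h stood apart, at 77.9% to 78.9% to the other 3. Coding identity to Oas1a lay between 72.7% (Oas1e) and 75.9% (Oas1c). The likeness bears on the levels, since the authors kept only uniquely mapped reads. A read that fits 2 genes equally was thus left out, which can lower the level of both. Of all stretches of 50 bases in the longest annotated coding transcript, 10.7% of those of Oas1c, 6.24% of Oas1d, 11.9% of Oas1e and 0.422% of Oas1h also occurred in another gene's transcript. Oas1a and Oas1g shared 57.1% and 54.6% of theirs, almost all with each other, so reads of these 2 genes are hard to tell apart.

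The cluster lies on chromosome 5 in the order Oas2, Oas3, Oas1e, Oas1c, Oas1b, Oas1f, Oas1h, Oas1g, Oas1a and Oas1d. The 4 ovary-expressed genes do not form a block. Oas1e (chr5:121236321-121245539) and Oas1c (chr5:121250102-121262523) are neighbours on the minus strand, Oas1h (chr5:121311430-121323521) lies between Oas1f and Oas1g, and Oas1d (chr5:121364354-121371661) is at the far end, both on the plus strand. Genes with low levels lie between them. Oas1c and Oas1b are annotated head to head with 120 bases between their annotated ends. The run of Oas1c printed above lies inside its annotated extent, and where its transcripts start in oocytes was not measured. In WT growing oocytes Oas1c was at 660.1 and 757 FPKM while Oas1b was at 8.24 and 10.3 FPKM. Oas1a and Oas1g, which lie between Oas1h and Oas1d, were at 0.159 and 0.262 FPKM and at 1.09 and 0.906 FPKM.

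**Figure D1:**
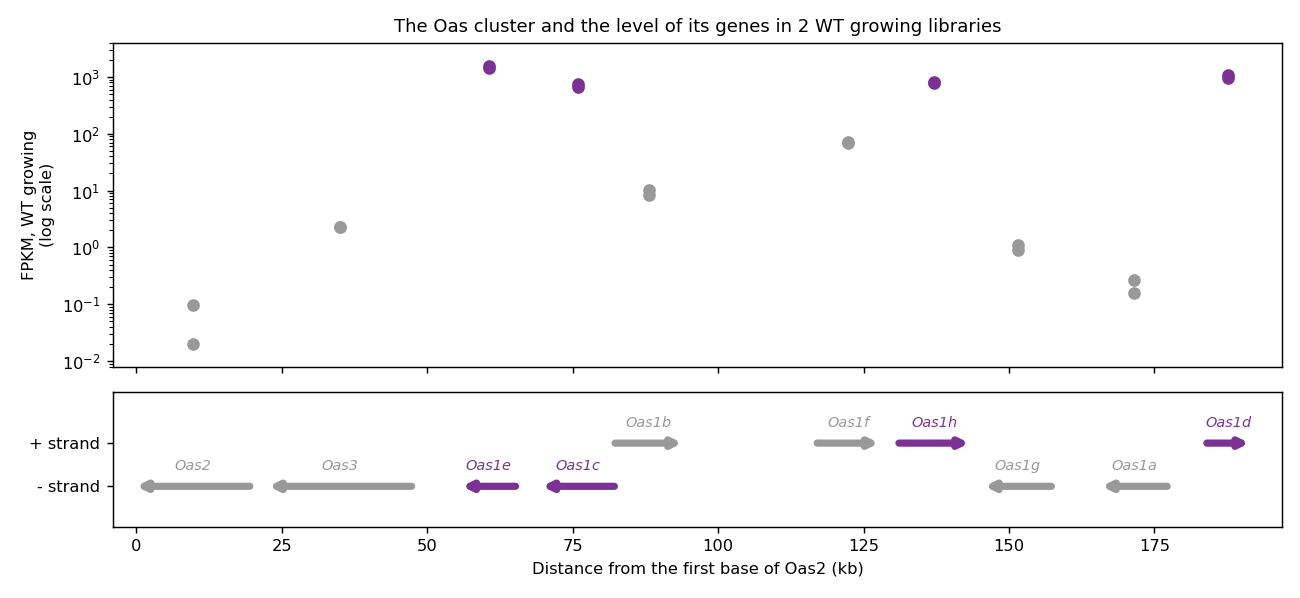
The Oas cluster on chromosome 5. The upper panel gives the FPKM (log scale) of each gene in the 2 WT growing libraries (points) above its midpoint, and the lower panel gives the extent and direction of each gene by strand, with the distance from the first base of Oas2 in kb. The 4 ovary-expressed genes (purple) lie between 660.1 FPKM (Oas1c) and 1568 FPKM (Oas1e), and the other genes drawn (grey) lie at or below 70.9 FPKM.

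The libraries held oocyte RNA with little sign of other cells. Of 15 oocyte markers, 13 to 14 reached 1 FPKM in each library, with a summed level of 6575 to 27780 FPKM, and Sohlh1, which marks younger oocytes, did not. Of 12 granulosa and cumulus cell markers, 1 to 4 reached 1 FPKM, with a summed level of 4.19 to 27.0 FPKM, and the gonadotropin-induced Ptx3 was listed at 0 in all 12 libraries. This sum was 27.0 and 23.2 FPKM in WT growing oocytes and 11.3 and 6.32 FPKM in null growing oocytes. Cyp19a1, the highest of them, had means of 17.9 ± 1.63 and 5.13 ± 3.67 FPKM there (SD, n = 2). Of the 4 markers tested, 3 were called lower in null growing oocytes, against 24.4% of all genes (12.3% without the ERCC scaling). Of 9 immune cell markers, at most 1 reached 1 FPKM, and their summed level was 0.564 to 3.21 FPKM. Zar1l, one of the 2 targeted genes, was at 639 and 644 FPKM in WT growing oocytes and at 17.5 and 13.2 FPKM in null growing oocytes. Zar1 remained detectable in the null (407 and 460 against 603 and 725 FPKM in WT growing oocytes) and its level is no check of a small deletion, which leaves most of a transcript in place. The sum of all FPKM in a library ran from 121121 at MII to 638056 in growing oocytes. The deposited file gives no read counts, and the read totals listed elsewhere in the study were not used here.

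All 4 genes were among the abundant transcripts of the oocyte. In WT growing oocytes, Oas1e was at 1434 and 1568 FPKM, which placed its mean 47th among the 11502 genes. Oas1d was at 975 and 1080 FPKM (rank 83), Oas1h at 779 and 800 FPKM (rank 116) and Oas1c at 660.1 and 757 FPKM (rank 132). Oas1e stood above Oas1d and Oas1d above Oas1h by more than their spread, whereas the means ± SD of Oas1h (789.7 ± 14.8) and Oas1c (709 ± 68.8) overlapped (n = 2 libraries each). Together the 4 genes made up 0.603% and 0.664% of the summed FPKM of the 2 libraries. The same share stayed between 0.452% and 0.664% in all 12 libraries.

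In WT GV oocytes the order was the same, with lower values. Oas1e was at 937 and 752 FPKM, Oas1d at 774 and 659, Oas1h at 682 and 549 and Oas1c at 452 and 379. Only Oas1c stood apart from its neighbour in this order by more than the spread. Between the growing and the GV stage in WT, 2 of the 4 genes fell, against 28.7% of all genes called lower (limma on log2(FPKM + 1) over all 12 libraries, Benjamini-Hochberg adjusted over all genes tested, threshold 0.05). Oas1e fell by 0.84 on the log2 scale (SE 0.23, limma adjusted p = 0.0222) and Oas1c by 0.77 (SE 0.25, limma adjusted p = 0.0362). The differences of Oas1d (-0.52, limma adjusted p = 0.0950) and Oas1h (-0.37, limma adjusted p = 0.176) did not pass. With the ERCC scaling taken out, 3.23% of all genes were called lower and 3.66% higher, and neither Oas1c (-0.38) nor Oas1e (-0.45) passed. By the labels each library held 10 oocytes, so a spike-in-scaled level stands for a fixed number of cells, and the number lysed could not be checked.

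**Figure D2:**
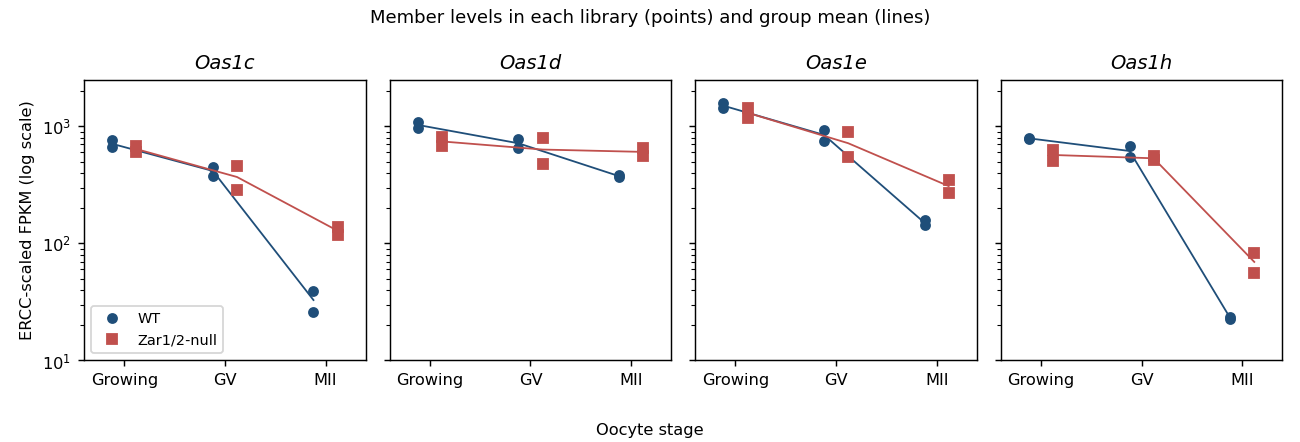
Levels of the 4 genes in the 12 libraries. Each panel gives ERCC-scaled FPKM (log scale) by oocyte stage for WT (circles) and Zar1/2-null (squares), with points for the 2 libraries and lines through the group means. The genotypes lie close in growing and GV oocytes, and at MII the null libraries lie above both WT libraries for every gene.

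In ovulated WT oocytes the levels of these transcripts were lower than at GV to very different extents. Only transcripts with a poly(A) tail were counted, so loss of a transcript and loss of its tail cannot be told apart. What is called left is the share of the counted level. Oas1h dropped from 682 and 549 FPKM at GV to 22.5 and 23.7 FPKM at MII, so that 3.75% of its GV mean was left. Oas1c dropped from 452 and 379 to 26.2 and 39.4 FPKM, with 7.89% left. Oas1e went from 937 and 752 to 157 and 143 FPKM, with 17.7% left, close to the median gene. That median was 18.8% over the 4914 genes that reached 10 FPKM in the mean of WT GV oocytes. Oas1d went from 774 and 659 to 384 and 367 FPKM, with 52.4% left, more than was left of 86.3% of those genes.

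All 4 genes fell between GV and MII in WT, as did most transcripts, since 93.4% of all genes were called lower and the median log2 difference over all genes was -1.28. Without the ERCC scaling 47.6% were called lower and 19.7% higher, with a median of -0.43. The log2 differences were -4.67 for Oas1h (SE 0.20, limma adjusted p = 1.81e-09), -3.65 for Oas1c (SE 0.25, limma adjusted p = 7.19e-08), -2.48 for Oas1e (SE 0.23, limma adjusted p = 1.25e-06) and -0.93 for Oas1d (SE 0.22, limma adjusted p = 0.00206). These falls depend on the spike-in scaling, which multiplied the MII values by 0.225 and 0.228 and the WT GV values by 0.836 and 0.697. Without it, Oas1h (-2.96) and Oas1c (-1.93) were still called lower, Oas1e was at -0.73 and called lower, and Oas1d turned to 0.83 and was called higher (limma adjusted p = 0.00111). With each library set to the same median, Oas1e also turned, to 0.16, and did not pass.

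The order of the 4 genes was another one at MII, and this order does not depend on the scaling, since all 4 genes of a library carry the same factor. Oas1d, which was below Oas1e in growing oocytes, was above it in WT MII oocytes (rank 48 of all genes against rank 117). Oas1c was at rank 605 and Oas1h at rank 848. Oas1c (32.8 ± 9.37 FPKM) and Oas1h (23.1 ± 0.860 FPKM, mean ± SD, n = 2) overlapped within their spread.

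In growing oocytes, none of the 4 genes passed the test between the genotypes, against 35.0% of all genes called in either direction. At an unadjusted limma p under 0.05 the count was 1, which was Oas1h. Null growing oocytes held 679 and 600 FPKM of Oas1c, 804 and 682 of Oas1d, 1431 and 1181 of Oas1e and 630 and 508 of Oas1h. The null values of Oas1d, Oas1e and Oas1h lay below both WT values, for Oas1e by less than 3 FPKM in 1 library, and those of Oas1c overlapped the WT range. The log2 differences (Zar1/2-null minus WT) were -0.48 for Oas1h (95% interval -0.92 to -0.041, limma adjusted p = 0.0846), -0.47 for Oas1d (-0.96 to 0.022, limma adjusted p = 0.126), -0.21 for Oas1e (-0.72 to 0.31, limma adjusted p = 0.526) and -0.15 for Oas1c (-0.69 to 0.40, limma adjusted p = 0.676). The intervals leave room for a decrease of over 1.5-fold in each.

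In GV oocytes none of the 4 genes passed either, where 43.4% of all genes were called and the median log2 difference of all genes was -0.38. The count was also 0 at an unadjusted p under 0.05. Of all genes, 2.83% were called higher and 40.6% lower, and without the ERCC scaling 7.19% and 13.5%, with a median of -0.032. The null GV libraries differed from each other. Oas1c was at 284 and 454 FPKM, Oas1d at 474 and 792 and Oas1e at 545 and 890, with replicate 1 low each time, while Oas1h was at 512 and 554 FPKM. The WT values lay inside or overlapped these ranges. The log2 differences lay between -0.27 (Oas1e, 95% interval -0.79 to 0.25) and -0.20 (Oas1h, -0.64 to 0.24), with limma adjusted p from 0.364 to 0.513. All 4 differences turned positive, to 0.18 to 0.25, when the ERCC scaling was taken out. Without null GV replicate 1, those of Oas1c, Oas1d and Oas1e were 0.13, 0.15 and 0.084.

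Within the null genotype, 2 of the 4 genes fell between the growing and the GV stage, against 55.9% of all genes. These were Oas1e (log2 difference -0.90, SE 0.23, limma adjusted p = 0.00666) and Oas1c (-0.83, SE 0.25, limma adjusted p = 0.0134), the 2 that fell in WT. The values of Oas1d (-0.27) and Oas1h (-0.087) did not pass. Without the ERCC scaling 21.3% of all genes were called lower and 14.3% higher. Neither fall was called there (-0.34 and -0.27), and Oas1h was called higher (0.47, limma adjusted p = 0.0204). The genotype effect did not differ between the growing and the GV stage for any of the 4 genes by the interaction test, against 13.9% of all genes, with log2 values from -0.064 to 0.28. At an unadjusted p under 0.05 the count was also 0.

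In MII oocytes all 4 genes were higher in the null than in WT, against 21.5% of all genes called higher and 10.3% lower (24.6% and 23.4% without the ERCC scaling). Among genes with a mean of 5 FPKM or more, fitted alone, 33.6% were called higher and 15.4% lower. Oas1c was at 139 and 117 FPKM in the null and at 26.2 and 39.4 FPKM in WT, a log2 difference of 1.96 (SE 0.25, limma adjusted p = 9.09e-05). Oas1h was at 82.7 and 56.2 FPKM in the null and at 22.5 and 23.7 FPKM in WT, a log2 difference of 1.52 (SE 0.20, limma adjusted p = 0.000122). Both null libraries lay above both WT libraries for these 2 genes, whose levels had fallen most in WT.

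Oas1e was at 346 and 271 FPKM in the null and at 157 and 143 FPKM in WT (log2 difference 1.03, SE 0.23, limma adjusted p = 0.00562). Oas1d was at 650 and 559 FPKM against 384 and 367 FPKM (0.68, SE 0.22, limma adjusted p = 0.0375). For these genes, too, both null values exceeded both WT values. The call of Oas1d is weak. It was lost when any of 8 of the 12 libraries was left out and when every library was set to the same median (0.35, limma adjusted p = 0.180). The call of Oas1e was lost without null MII replicate 1 (0.85, limma adjusted p = 0.0536). Those of Oas1c and Oas1h held without any 1 library, with log2 differences of 1.67 to 2.24 and 1.25 to 1.80, and under both other scalings.

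**Figure D3:**
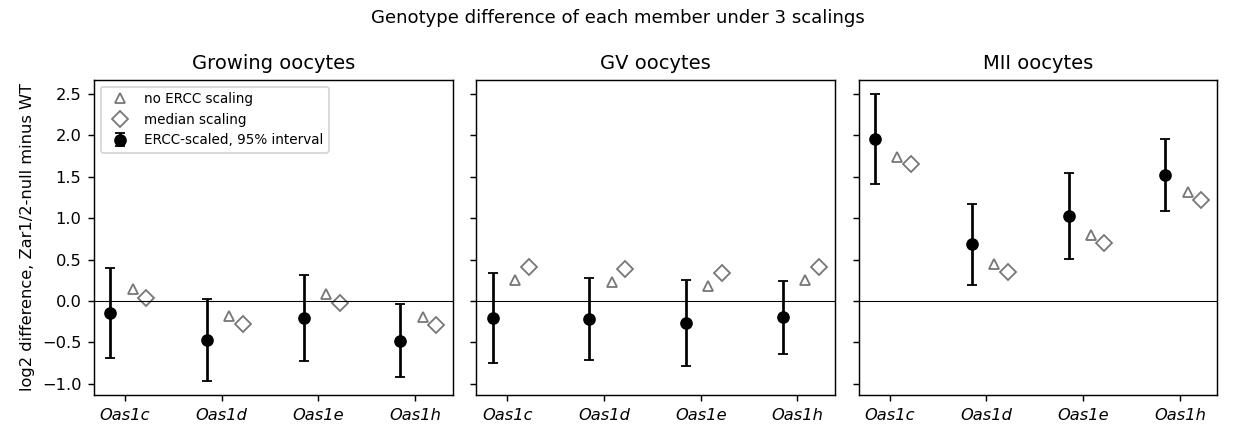
Genotype difference of the 4 genes at each stage. The vertical axis is the log2 difference, Zar1/2-null minus WT, of log2(FPKM + 1), with filled circles and 95% intervals for the ERCC-scaled values (2 libraries a group), triangles for values without the ERCC scaling and diamonds for libraries set to the same median. At MII all values lie above 0 under the 3 scalings, whereas at GV they lie below 0 with the ERCC scaling and above 0 without it.

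The study sorted genes by a 3-fold change after setting low FPKM values to 1. Here the rule was applied to group means, with each mean set to at least 1 FPKM, which need not be the exact order of steps in the study. By this rule 2 of the 4 genes were higher in null MII oocytes, against 7.49% of all genes. These were Oas1c at 3.91-fold and Oas1h at 3.01-fold, the latter just past the limit. Oas1e (2.06-fold) and Oas1d (1.61-fold) were below it. Without the ERCC scaling Oas1h was at 2.52-fold and Oas1c at 3.30-fold. None of the 4 genes passed the rule in growing or GV oocytes, where 4.52% and 4.66% of all genes did in either direction and where the ratios lay between 0.721 and 0.902.

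Between GV and MII in the null, 3 of the 4 genes fell, against 68.7% of all genes called lower (40.5% without the ERCC scaling). Oas1h fell by 2.95 on the log2 scale (SE 0.20, limma adjusted p = 1.60e-07), Oas1c by 1.48 (SE 0.25, limma adjusted p = 0.000234) and Oas1e by 1.18 (SE 0.23, limma adjusted p = 0.000853). Of these, only Oas1h was also called lower without the ERCC scaling (-1.90), where Oas1c was at -0.43 and Oas1e at -0.12. Oas1d had a difference of -0.024 (95% interval -0.52 to 0.47, limma adjusted p = 0.935), and without the ERCC scaling it was called higher (1.04). Of the GV mean, 13.0% of Oas1h, 34.7% of Oas1c, 43.0% of Oas1e and 95.5% of Oas1d was left in null MII oocytes. The median over the 4011 genes that reached 10 FPKM in the mean of null GV oocytes was 36.0%.

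The order of the share left at MII was the same in both genotypes, with Oas1h lowest, then Oas1c, Oas1e and Oas1d. The genotype effect was larger at MII than at GV for all 4 genes by the interaction test, against 33.9% of all genes called higher (15.1% without the ERCC scaling), and the median over all genes was 0.48 on the log2 scale. Among genes with a mean of 5 FPKM or more, fitted alone, 45.4% were called higher, with a median of 0.61. The interaction was 2.16 for Oas1c (SE 0.35, limma adjusted p = 0.000819) and 1.72 for Oas1h (SE 0.28, limma adjusted p = 0.000896). It was 1.30 for Oas1e (SE 0.33, limma adjusted p = 0.0120) and 0.90 for Oas1d (SE 0.32, limma adjusted p = 0.0470). Taking out the ERCC scaling left Oas1c (1.50) and Oas1h (1.06) past the threshold, and Oas1e (0.61) and Oas1d (0.21) short of it. With libraries set to the same median, the value of Oas1d turned to -0.041. The call of Oas1d was lost when any of 11 of the 12 libraries was left out, and that of Oas1e without WT GV replicate 1 (1.14, limma adjusted p = 0.0612). Markers of the oocyte moved the same way, with 11 of the 14 tested called higher in null MII oocytes against 21.5% of all genes, and a median log2 difference of 0.94, against 0.060 over all genes and 1.28 over the 4 Oas1 genes.

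Ratios between the 4 genes within a library are free of any scaling. Oas1h stood at 0.799 and 0.741 of Oas1d in WT growing oocytes, at 0.882 and 0.833 in WT GV oocytes and at 0.0585 and 0.0646 in WT MII oocytes. In the null the ratios were 0.784 and 0.745, then 1.08 and 0.699, then 0.127 and 0.101. Both null MII ratios were thus above both WT ratios, and both genotypes were far below their own earlier stages.

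Oas1c followed the same course. Its ratio to Oas1d was 0.585 and 0.575 in WT GV oocytes and 0.599 and 0.573 in null GV oocytes, with no gap between the genotypes. At MII it was 0.0682 and 0.108 in WT and 0.214 and 0.210 in the null. The ratio of Oas1e to Oas1d went from 1.21 and 1.14 at GV to 0.409 and 0.389 at MII in WT, and from 1.15 and 1.12 to 0.532 and 0.485 in the null. In growing oocytes, too, Oas1c and Oas1e were higher relative to Oas1d in the null. The ratio of Oas1c was 0.844 and 0.880 there against 0.677 and 0.701 in WT, and that of Oas1e was 1.78 and 1.73 against 1.47 and 1.45. With 2 libraries against 2, an exact two-sided permutation test of any of these ratios cannot give a p below 0.333, so they are given as values.

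**Figure D4:**
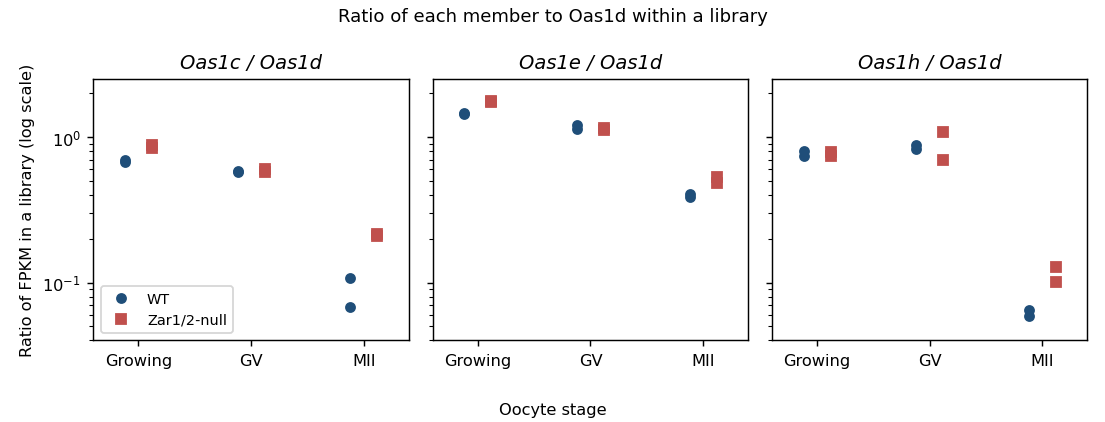
Ratio of Oas1c, Oas1e and Oas1h to Oas1d within each library. The vertical axis is the ratio of FPKM (log scale) and the horizontal axis the oocyte stage, with WT as circles and Zar1/2-null as squares, 2 libraries a group. All 3 ratios drop between GV and MII in both genotypes, and at MII the null libraries lie above the WT libraries.

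At the 3′ end, which cytoplasmic polyadenylation acts on in oocytes, the 4 genes were alike in the motifs searched on the sense strand of the last 100 transcript bases. All 4 held the variant polyadenylation signal, with the letters ATTAAA, which 20.5% of 17948 transcripts with a 3′ UTR of at least that length held. Oas1h also held the canonical signal, AATAAA, found in 64.3%, which lay 88 bases from its transcript end. The variant signal lay 26 bases from that end in Oas1h, and 24 and 4 bases from it in Oas1d. None held the cytoplasmic polyadenylation element, TTTTAT, found in 13.7% of transcripts, nor its variant with an added A (4.9%). Oas1d and Oas1h, which differed most in what was left at MII, were thus alike in 3 of these 4 motifs and differed in the canonical signal.

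The other Oas genes were far lower, and the closest relative in level and pattern was Oas1f. It was at 67.6 and 70.9 FPKM in WT growing oocytes, at 54.6 and 38.6 at GV and at 0.532 and 0.625 at MII. In null oocytes it was at 49.1 and 37.1, at 44.2 and 56.3 and at 31.1 and 23.5 FPKM. Its MII difference of 4.15 on the log2 scale (SE 0.21, limma adjusted p = 5.52e-08) was larger than that of any of the 4 ovary-expressed genes, with 1.24% of its GV mean left in WT and 54.4% in the null. Of the 8 other family genes, 5 were tested, and at MII 1 was higher (Oas1f) and 1 lower (Oas1b, -0.46, limma adjusted p = 0.0467). In growing oocytes 4 of the 5 were lower in the null, against 24.4% of all genes (12.3% without the ERCC scaling).

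Transcripts of the active Oas1 enzymes were listed at low levels. Oas1a, which encodes the enzyme that OAS1D can bind, ran from 0 to 0.262 FPKM over the 12 libraries, and Oas1g from 0 to 1.095 FPKM. Of their stretches of 50 bases, 57.1% and 54.6% also occurred in another gene's transcript, which can lower these values. Oas2, Oas3, Oasl1 and Oasl2 stayed at or below 4.22 FPKM. Of the genes listed with 2-5A turnover, 3 were tested, and none passed between the genotypes in growing oocytes (1 at an unadjusted limma p under 0.05). In the null, 3 were lower at GV, against 40.6% of all genes (13.5% without the ERCC scaling), and 2 at MII, against 10.3%. Akap7, whose protein has a domain like that of 2-5A phosphodiesterases, was the highest of them. It was at 10.4 and 9.03 FPKM in WT MII oocytes and at 5.69 and 5.46 FPKM in the null (log2 difference -0.70, SE 0.17, limma adjusted p = 0.00816).

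Sensors and interferon signalling genes ranged from 0 to 102 FPKM, the highest being Irf1. Of 16 genes of double-stranded RNA and nucleic acid sensing, 8 were tested, with 1 higher and 0 lower in null MII oocytes, against 21.5% and 10.3% of all genes. Of 13 interferon receptor and signalling genes, 8 were tested, with 0 called at MII, and 0 at an unadjusted limma p under 0.05. At GV, 1 of the 8 sensing genes was higher in the null and 6 were lower. Of the receptor and signalling genes 0 were higher and 3 lower there, and 7 had an unadjusted limma p under 0.05. The shares of all genes were 2.83% and 40.6% (7.19% and 13.5% without the ERCC scaling). In growing oocytes 3 sensing genes were higher and 2 lower. For receptors and signalling it was 1 and 1, against 10.6% and 24.4% of all genes. Jak2, a kinase of cytokine receptors, was at 14.6 and 15.8 FPKM in WT and 13.9 and 15.6 FPKM in null MII oocytes (log2 difference -0.046, 95% interval -0.44 to 0.35). The Jak2 means at GV were 48.4 ± 2.58 FPKM in WT and 26.4 ± 7.46 FPKM in the null (SD, n = 2). In growing oocytes they were 54.8 ± 1.79 and 38.4 ± 1.65 FPKM. Jak1 was at 6.76 and 8.03 FPKM in WT and at 6.35 and 6.14 FPKM in null MII oocytes. Irf1, an interferon regulatory transcription factor, was at 96.4 and 96.2 FPKM in WT and at 102 and 98.3 FPKM in null growing oocytes. In MII oocytes its mean was 1.83 ± 0.484 FPKM in WT and 1.81 ± 0.553 FPKM in the null (SD, n = 2).

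Of 20 interferon-stimulated genes, 8 were tested, and in null MII oocytes 4 were higher and 2 lower (21.5% and 10.3% of all genes), with a median log2 difference of 0.55 against 0.060 over all genes. The other 12, among them Isg15, Ifit1, Ifit2 and Rsad2, stayed below 1 FPKM in every library. Of those tested, Bst2 ran from 0.524 to 11.6 FPKM, Ifi27l2a from 0 to 16.2, Cmpk2 from 0.475 to 14.4 and Isg20 from 1.11 to 13.8 FPKM over the 12 libraries. At MII, Bst2, which tethers budding virus particles, had a mean of 2.70 ± 0.859 FPKM in WT and of 9.15 ± 1.29 FPKM in the null (SD, n = 2; log2 difference 1.47, SE 0.24, limma adjusted p = 0.000568). Ifi27l2a was listed at 0 in both WT MII libraries and was at 4.42 and 4.41 FPKM in the null. Cmpk2 (-0.44) and Xaf1 (-1.08) were the 2 that were lower at MII. In growing oocytes 3 of the 8 were higher in the null and 1 lower, against 10.6% and 24.4% of all genes. There the means were 1.40 (WT) and 12.8 FPKM (null) for Ifi27l2a and 1.83 and 4.95 FPKM for Xaf1. Those of Isg20 were 11.4 (WT) and 1.71 FPKM (null). Ifitm3, a membrane protein that restricts viral entry, was the highest of the list. It was at 45.4 and 36.8 FPKM in WT and at 69.9 and 59.6 FPKM in null MII oocytes (log2 difference 0.65, SE 0.18, limma adjusted p = 0.0163).

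Over the 12 libraries, log2(FPKM + 1) of the 4 genes was most alike between Oas1c and Oas1e (Pearson r = 0.983) and least alike between Oas1d and Oas1h (r = 0.810). These values are descriptions, as the libraries share stages and scaling factors. Among the 5965 genes whose mean was 5 FPKM or more, the 3 with the highest r to Oas1c were Tgfb3 (0.998), Tmem183a (0.997) and Ppp1ca (0.997). For Oas1h they were Ndufa9 (0.999), Igbp1 (0.998) and Mrps18b (0.998), and for Oas1e Cox18 (0.996), Fbxw17 (0.996) and Slmo2 (0.996). Oas1d had less close matches in Gm8801 (0.980), Agk (0.976) and Pla2g12a (0.973).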

How the data were processed

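The deposited table gave 12 libraries as FPKM in 23230 genes. Per the methods of the study, the authors trimmed the reads to 50 bases, mapped them to mm9 with TopHat2 (2.1.1), assigned uniquely mapped reads to UCSC gene models with Cufflinks (2.2.1) and multiplied the FPKM of each library by a factor from its ERCC reads. The factors were recovered from the digits of the deposited FPKM and lay between 0.225 and 1. Groups came from the sample titles. The 11502 genes that reached 1 FPKM in 1 library or more were tested on log2(FPKM + 1) with limma (3.58.1, R 4.3.3), with 1 term per group over 12 libraries, a trend in the prior variance and Benjamini-Hochberg adjustment over all genes. A fold change on this scale understates that of low genes. The threshold was an adjusted p of 0.05. Simulated data were used to check the fit. The file and the labels give no read counts, and the read totals in the supplement of the study were not used, so no interval for counting error is given. Reads from closely related genes that did not map uniquely were left out, which can lower the level of such genes.

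The 4 genes and the gene lists were chosen with earlier results of these data known. Named are the 4 genes, the targeted genes, list genes whose mean was 10 FPKM or more, Oas1a, and the 3 genes most like each of the 4 (Pearson r over 12 libraries, among genes whose mean was 5 FPKM or more). The remaining Oas genes, Isg15, Ifit1, Ifit2, Rsad2, Bst2, Ifi27l2a, Cmpk2, Isg20, Xaf1, Ptx3, Cyp19a1 and Sohlh1 were named after their values were seen. Alternatives took out the ERCC scaling, set libraries to the same median, changed the pseudocount to 0.1, changed the filter, added a replicate block, fitted the compared groups alone, dropped the variance trend, dropped small RNA genes (Mir and Snor) or left out each library. Gene models were those of GENCODE M1 on mm9, and alignments were made with mafft (7.526). All 20 interferon-stimulated genes and the other lists were found in the file, some under older symbols. A further gene of the 2-5A list is not reported here.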

Additional observations from a re-analysis of the deposited data

Results flagged for a closer look

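For each of the 4 genes the genotype effect at MII was larger than that at GV by the interaction term of the fit (limma, Benjamini-Hochberg adjusted over all genes). The log2 value of this difference was 2.16 for Oas1c (limma adjusted p = 0.000819), 1.72 for Oas1h (limma adjusted p = 0.000896), 1.30 for Oas1e (limma adjusted p = 0.0120) and 0.90 for Oas1d (limma adjusted p = 0.0470). Of all genes, 33.9% were called the same way, and 45.4% of those with a mean of 5 FPKM or more, fitted alone. Both null MII libraries lay above both WT MII libraries for each gene. The median-scaled value of Oas1d was -0.041. Groups held 2 libraries, too few to look for a library far from the rest of its group.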

How the results depend on the processing

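The calls that held under every alternative run were those of Oas1c and Oas1h for null minus WT at MII, MII minus GV in WT and the genotype effect at MII minus that at GV, and that of Oas1h for MII minus GV in the null. The pseudocount of 0.1, the filter at a mean of 5 FPKM, the fit without a variance trend, the fit without Mir and Snor genes and the replicate block changed no call and no direction. Replicate numbers were shared across groups, and 4 of 15 correlations between same-numbered deviations exceeded 0.1 (range -0.12 to 0.16). No reference was made for these values, so whether the numbers pair the libraries cannot be decided from them. With the replicate block, the log2 difference at MII was 1.96 for Oas1c, 0.68 for Oas1d, 1.03 for Oas1e and 1.52 for Oas1h. Each group held 2 libraries, and read depth was not used.

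Without the ERCC scaling, the following log2 differences changed direction or their side of the threshold. For null minus WT they were 0.14 (Oas1c) and 0.081 (Oas1e) in growing oocytes and 0.25, 0.23, 0.18 and 0.25 (Oas1c, Oas1d, Oas1e and Oas1h) at GV. For GV minus growing they were -0.38 (Oas1c), -0.45 (Oas1e) and 0.022 (Oas1h) in WT and -0.27, 0.28, -0.34 and 0.47 (Oas1c, Oas1d, Oas1e and Oas1h) in the null. For MII minus GV they were 0.83 (Oas1d) in WT and -0.43 (Oas1c), 1.04 (Oas1d) and -0.12 (Oas1e) in the null. The genotype effect at GV minus that in growing oocytes was 0.11 (Oas1c) and 0.10 (Oas1e), and that at MII minus that at GV was 0.21 (Oas1d) and 0.61 (Oas1e). With libraries set to the same median, null minus WT was 0.038 (Oas1c) in growing oocytes, 0.40, 0.39, 0.34 and 0.41 (Oas1c, Oas1d, Oas1e and Oas1h) at GV and 0.35 (Oas1d) at MII. GV minus growing was -0.44 (Oas1c) and -0.50 (Oas1e) in WT and -0.069, 0.49, -0.14 and 0.67 (Oas1c, Oas1d, Oas1e and Oas1h) in the null. MII minus GV was 1.72 (Oas1d) and 0.16 (Oas1e) in WT and 0.21, 1.67 and 0.51 (Oas1c, Oas1d and Oas1e) in the null. The genotype effect at GV minus that in growing oocytes was then 0.37 (Oas1c) and 0.36 (Oas1e), and that at MII minus that at GV was -0.041 (Oas1d) and 0.36 (Oas1e).

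With no filter on low values, where more genes shared the adjustment, 4 calls were lost at the same log2 differences: Oas1d for null minus WT at MII (0.68) and for the genotype effect at MII minus that at GV (0.90), and Oas1c (-0.77) and Oas1e (-0.84) for GV minus growing in WT. With the libraries of the compared groups alone, Oas1c (-0.83) and Oas1e (-0.90) for GV minus growing in the null and Oas1d (0.90) for the genotype effect at MII minus that at GV were lost.

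Leaving out each of the 12 libraries moved further values across the threshold or 0. Null minus WT ran from -0.59 to -0.35 (Oas1d) and from -0.64 to -0.32 (Oas1h) in growing oocytes. At GV it ran from -0.54 to 0.13 (Oas1c), from -0.59 to 0.15 (Oas1d) and from -0.62 to 0.084 (Oas1e), and at MII from 0.57 to 0.79 (Oas1d) and from 0.85 to 1.20 (Oas1e). GV minus growing in WT ran from -0.90 to -0.64 (Oas1c), from -0.64 to -0.41 (Oas1d) and from -0.99 to -0.68 (Oas1e), where the call of Oas1c was lost without any 1 of the 4 libraries compared and that of Oas1e without 3 of them. GV minus growing in the null ran from -1.17 to -0.49 (Oas1c), from -0.64 to 0.10 (Oas1d), from -1.25 to -0.55 (Oas1e) and from -0.24 to 0.068 (Oas1h), with both calls lost without null GV replicate 1 or null growing replicate 1. MII minus GV in the null ran from -0.39 to 0.35 (Oas1d). The genotype effect at GV minus that in growing oocytes ran from -0.40 to 0.28 (Oas1c), from -0.12 to 0.62 (Oas1d) and from -0.42 to 0.29 (Oas1e), and that at MII minus that at GV from 0.53 to 1.27 (Oas1d) and from 0.94 to 1.65 (Oas1e).

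The number of the 4 genes called moved accordingly. Both without ERCC scaling and with libraries set to the same median it was 0 for GV minus growing in WT, 1 for GV minus growing in the null and 2 for the genotype effect at MII minus that at GV, and the number past the 3-fold rule was 1. It was 0 for GV minus growing in WT with no filter, and 0 for GV minus growing in the null with the compared groups alone. Leaving out a library gave 0 to 1 for null minus WT in growing and in GV oocytes, 2 to 4 at MII, 0 to 3 for GV minus growing in WT and in the null, 2 to 4 for the genotype effect at MII minus that at GV and 1 to 2 for the 3-fold rule. Apart from what their construction shows, the cause of these changes was not tested.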
